A study of Mus musculus with 6 samples.

Results

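The 10 genes Sox10, Pou3f1, Mbp, Cnp, Mal, Gpr37l1, Kcna1, Art3, Matn2 and Gap43 are grouped here as glial genes. They were followed across 3 cell populations sorted from mouse hind limb muscle at 2 ages. The name does not make them particular to glia, as Art3 was brightest in sorted endothelial and hematopoietic cells and Matn2 in PDGFRa+ cells. The 10 genes were selected on measured values, the difference between the aged and the young PDGFRa+ array. That difference is therefore given here as a description with no test. All 10 of 10 were found among 19321 genes with a named probe, each through 1 probe, and all 10 were above background on all 6 arrays. The strain was C57BL/6 throughout. The young mice were 8 to 10 weeks old and the aged mice 24 to 28 months, and no other treatment or allele is given. PDGFRa+ mesenchymal progenitors, satellite cells, and a mixture of CD31+ endothelial and CD45+ hematopoietic cells (written CD31_CD45) were each hybridised to 1 array per age. Cells were pooled over repeated sorts, so an array averages over mice, and no array has a replicate. The submitters state that genes particular to a population and genes that differ with age were sought. In such bulk samples a larger number of glial cells and more RNA per cell cannot be told apart.

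Schwann cells wrap the axons of peripheral nerves. The transcription factor SOX10 is required throughout the Schwann cell lineage. POU3F1 (Oct6, SCIP) acts with it at the onset of myelination, and EGR2 (Krox20) then drives the genes of the compact myelin sheath. Nerves run through muscle to the endplates, where terminal Schwann cells cap the synapse, so glial transcripts may be met in a muscle preparation. PDGFRa, the receptor used for the sort, marks interstitial mesenchymal cells in muscle and also, in the central nervous system, the precursors of oligodendrocytes.

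Promoter sequence of the members was looked up in RefSeq (mouse build GRCm38.p6, 250 bases before to 50 bases after the start site). Windows were kept for 4 of the 10 genes, namely Gpr37l1, Mal, Art3 and Cnp. The windows of a single chromosome were dropped before this count, so a member lying there would not appear. Windows of 3 of these genes are shown 5′ to 3′ along the gene, because Gpr37l1 and Cnp were higher in the aged PDGFRa+ array and Art3 separated the populations. Capitals mark motif matches.
Gpr37l1, chr1:135167632-135167931, minus strand: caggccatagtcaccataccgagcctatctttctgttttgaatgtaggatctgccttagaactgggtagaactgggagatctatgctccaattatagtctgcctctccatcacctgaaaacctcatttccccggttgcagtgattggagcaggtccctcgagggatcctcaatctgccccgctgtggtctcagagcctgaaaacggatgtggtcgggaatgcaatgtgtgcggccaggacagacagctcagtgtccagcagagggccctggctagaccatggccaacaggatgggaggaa
Cnp, chr11:100574689-100574988, plus strand: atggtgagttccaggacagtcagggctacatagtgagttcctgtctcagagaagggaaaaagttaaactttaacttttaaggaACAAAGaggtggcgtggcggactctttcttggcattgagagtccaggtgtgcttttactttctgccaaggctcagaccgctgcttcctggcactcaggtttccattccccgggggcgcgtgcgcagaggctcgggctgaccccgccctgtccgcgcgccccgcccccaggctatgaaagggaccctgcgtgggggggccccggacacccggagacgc
Art3, chr5:92386637-92386936, plus strand: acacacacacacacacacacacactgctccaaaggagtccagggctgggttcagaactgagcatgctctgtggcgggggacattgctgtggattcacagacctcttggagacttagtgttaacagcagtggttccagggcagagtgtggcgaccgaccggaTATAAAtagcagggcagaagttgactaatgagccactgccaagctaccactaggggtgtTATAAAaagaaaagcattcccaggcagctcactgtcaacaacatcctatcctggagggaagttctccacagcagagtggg
The motifs searched on both strands were the SOX cores ACAAAG and ACAATG, the POU octamer ATGCAAAT, the EGR motif GCGNGGGCG and TATAAA. In the Cnp window ACAAAG was matched once, 167 bases before the start site, and in this Art3 window TATAAA was matched at 89 and 30 bases before the start site. Art3 has 3 listed starts. Of the other starts, the upstream window held 3 TATAAA matches, of which 2 overlap on opposite strands, and the downstream window held 1 ACAAAG match. The windows of Gpr37l1 and Mal held none of the 5 motifs. Among the 32851 promoters of the table, 18.7% held ACAAAG, 12.6% ACAATG, 1.74% the octamer, 5.55% the EGR motif and 13.6% TATAAA. These matches describe letters and not binding.

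Each array had 88.4% to 92.3% of 23473 probes above background, and arrays of 1 population correlated across genes, which are not replicates, at r = 0.985 to 0.992. The sort markers stood where the labels place them. The PDGFRa+ arrays read 5700.4 (young) and 4149 (aged) for Pdgfra, in the linear intensity units deposited by the authors. It also differed within the satellite pair, at 7.6 in young and 60.6 in aged cells. The probe of Pax7 was not above background on either PDGFRa+ array, and Ptprc, which encodes CD45, read 4.7 and 3.5 there. The scanner files fall into 2 sets by the slope between scanner gains. Both PDGFRa+ arrays and the young satellite array form the first set, and both CD31_CD45 arrays and the aged satellite array the second. Age and set therefore cannot be told apart in the satellite pair, while the PDGFRa+ and the CD31_CD45 pair each lie within 1 set.

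Sox10, the lineage factor, had its lowest value in young and its highest in aged PDGFRa+ cells. The PDGFRa+ arrays read 35.1 (young) and 173.8 (aged), the satellite arrays 53.2 (young) and 89.6 (aged), and the CD31_CD45 arrays 43.5 (young) and 38.8 (aged). On the log2 scale, after background correction with an offset of 50 (which shrinks differences of dim probes), aged minus young was 1.65 in the PDGFRa+ pair, 0.53 in the satellite pair and -0.11 in the CD31_CD45 pair. Pou3f1 is the factor of promyelinating Schwann cells. It read 23.7 and 290.6 in young and aged PDGFRa+ cells, 61.1 and 155.0 in satellite cells, and 49.5 and 42.2 in CD31_CD45 cells. The log2 differences were 2.53, 1.06 and -0.14 in that order, the first being the widest of the 10 at this offset, while the ratio of deposited values was 12.3 for Pou3f1 and 21.4 for Gpr37l1. In the PDGFRa+ pair, whose difference chose the members, 3 genes of 18013 stood above Pou3f1. In the satellite pair, which played no part in the choice, 176 of 18184 did.

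**Figure D1:**
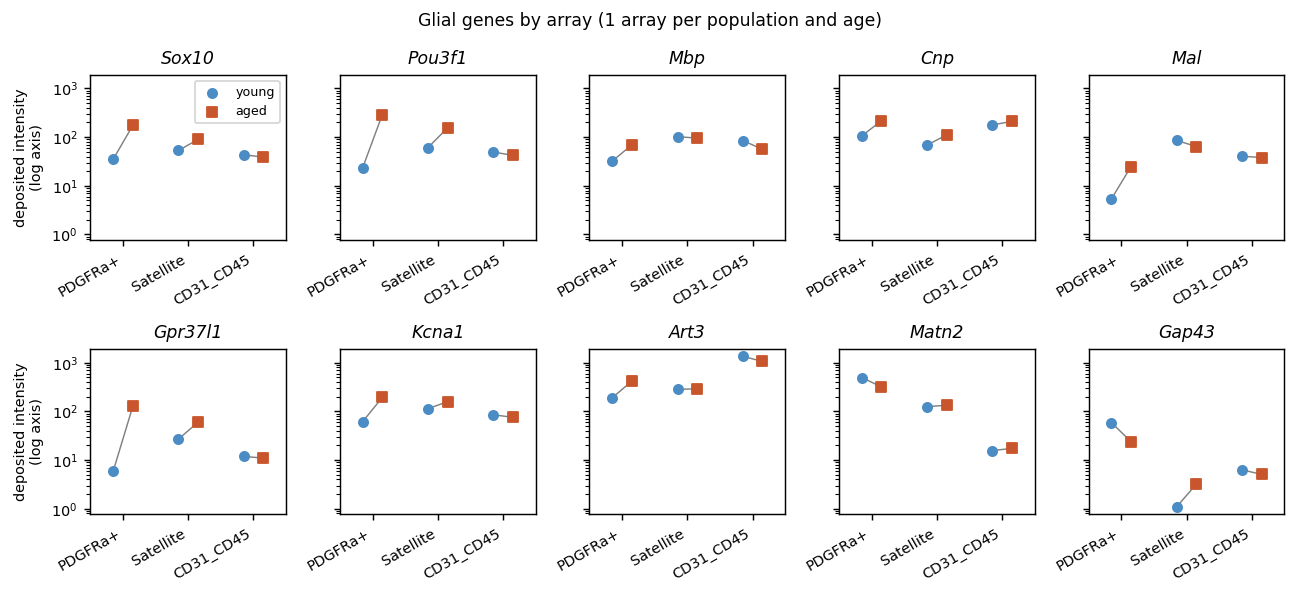
Deposited intensity (log axis) of the 10 genes on each of the 6 arrays, with circles for young and squares for aged cells, and a line joining the 2 arrays of a population. Sox10, Pou3f1, Gpr37l1 and Kcna1 are highest in the aged PDGFRa+ array, while Matn2 and Gap43 are highest in the young PDGFRa+ array.

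The genes tied to the myelin sheath were higher in aged than in young PDGFRa+ cells by smaller steps. Mbp encodes myelin basic protein, which holds the cytoplasmic faces of the sheath together. It read 32.3 and 69.5 in young and aged PDGFRa+ cells, 102.1 and 95.6 in satellite cells, and 85.2 and 56.2 in CD31_CD45 cells, with log2 differences of 0.73, -0.05 and -0.39. Both PDGFRa+ values lay below both satellite values. Cnp, a phosphodiesterase of non-compact myelin that other cells also make, read 106.6 and 217.0 in young and aged PDGFRa+ cells, 68.8 and 111.4 in satellite cells, and 178.0 and 211.0 in CD31_CD45 cells. Among the members, Cnp alone was higher in the aged array of all 3 populations by more than 0.2, at 0.93, 0.55 and 0.25. With the local background of each spot in place of the blank spots these became 0.31, 0.03 and -0.01. Under that setting Mbp stood at -0.05 in the PDGFRa+ pair. Mal, a proteolipid of myelin and of lymphocyte membranes, read 5.4 and 24.9 in young and aged PDGFRa+ cells, 85.4 and 64.2 in satellite cells, and 40.5 and 38.1 in CD31_CD45 cells. Its log2 differences were 0.63, -0.26 and -0.07, and both PDGFRa+ values were the lowest of the 6.

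Among the membrane proteins, Gpr37l1, a receptor of glia related to the endothelin receptors, read 5.9 and 126.4 in young and aged PDGFRa+ cells. The log2 difference with the offset was 2.05. The satellite arrays read 27.0 and 60.0 (log2 0.63) and the CD31_CD45 arrays 11.9 and 11 (log2 -0.04). Kcna1, which encodes the voltage-gated potassium channel Kv1.1, read 62.1 and 194.0 in young and aged PDGFRa+ cells, 114.0 and 158.9 in satellite cells, and 85.2 and 76.0 in CD31_CD45 cells. Its log2 differences were 1.32, 0.44 and -0.10, the same order of the pairs as for Sox10, Pou3f1 and Gpr37l1. Art3, a member of the ecto-ADP-ribosyltransferase family held at the cell surface, was bright in another population. It read 192.0 and 419.9 in young and aged PDGFRa+ cells and 284.4 and 291.8 in satellite cells, against 1355.5 and 1066.9 in CD31_CD45 cells, with log2 differences between ages of 1.10, 0.11 and -0.22.

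Matn2 and Gap43 stood apart, since both were lower in the aged PDGFRa+ array. Matn2 encodes matrilin-2, an adaptor protein of the extracellular matrix around Schwann cells, and read 497.9 and 317.9 in young and aged PDGFRa+ cells, 125.5 and 133.8 in satellite cells, and 15.7 and 17.4 in CD31_CD45 cells. The log2 differences were -0.44, 0.13 and 0.02. Gap43 encodes a growth-cone protein that immature and denervated Schwann cells also make. It read 58.8 and 23.9 in young and aged PDGFRa+ cells, and 6.3 and 5.1 in CD31_CD45 cells. In satellite cells it read 1.1 and 3.2, where the young value lay 2.49 SD of the blank spots above their mean, close to the limit of detection. The log2 differences were -0.58, 0.08 and -0.05.

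The order of the populations differed between the ages. In the young arrays, Sox10, Pou3f1, Gpr37l1, Kcna1, Mbp and Mal shared 1 order, with satellite cells highest, then CD31_CD45 and PDGFRa+ cells lowest. The young spread was narrow for Sox10, whose highest value was 1.52 times its lowest, and wide for Mal, at 15.8 times. In the aged arrays Sox10, Pou3f1, Gpr37l1 and Kcna1 had PDGFRa+ cells highest, then satellite and CD31_CD45 cells, with highest over lowest at 4.48, 6.89, 11.5 and 2.55. Matn2 kept PDGFRa+ cells highest and CD31_CD45 cells lowest at both ages, and Gap43 kept PDGFRa+ cells highest and satellite cells lowest. With 1 array per group these orders have no error estimate.

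**Figure D2:**
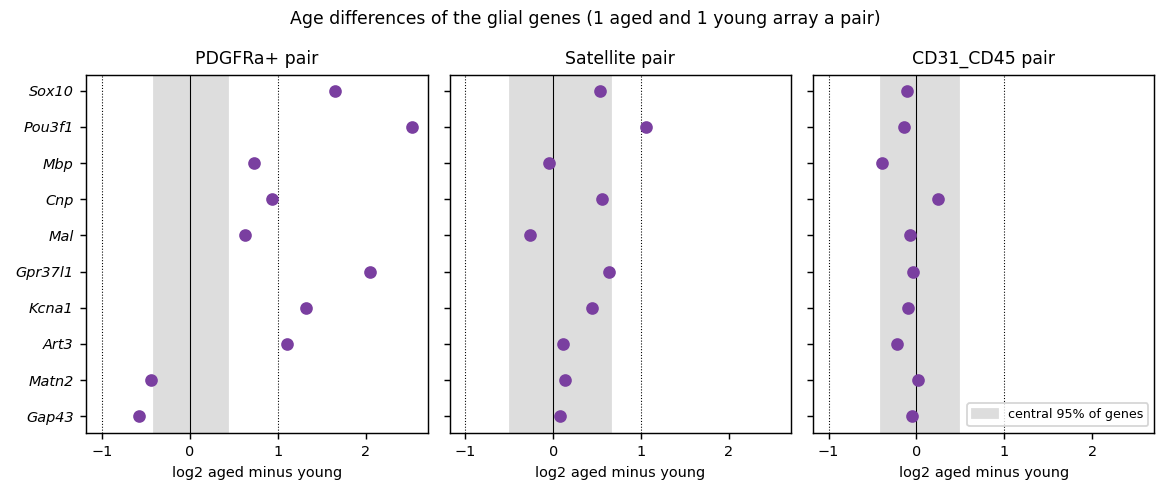
Log2 aged minus young of the 10 genes (rows) in each population (panels), where the grey band holds all genes above background but the outermost 2.5% on each side and dotted lines mark 2-fold. In the PDGFRa+ pair, on whose difference the 10 genes were chosen, all 10 points lie outside the band (-0.41 to 0.43), so nothing is read from their place. In the satellite pair Pou3f1 alone lies outside it (-0.49 to 0.66), and in the CD31_CD45 pair none does (-0.40 to 0.48).

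Counted against all genes, 5 of the 10 were at least 2-fold higher in the aged PDGFRa+ array and 0 at least 2-fold lower, where 0.261% of 18013 genes above background on the brighter array were higher and 0.161% lower by that much. This contrast chose the members, so nothing is read from that count. The members that passed 2-fold were Pou3f1, Gpr37l1, Sox10, Kcna1 and Art3. In the satellite pair 1 of 10, Pou3f1, was at least 2-fold higher (with the local background Pou3f1 stood at 0.64, and Matn2, at 1.45 in place of 0.13, was the 1 past 2-fold) against 1.12% of 18184 genes, and 0 were lower by that much against 0.0990% (1.22% in either direction). The median of the 10 in this pair was 0.29, where the median of all genes was -0.01, and 8 of the 10 were higher against 44.0% of all genes. In the CD31_CD45 pair 0 of 10 passed 2-fold in either direction against 0.575% of 18254 genes (0.509% higher, 0.0657% lower), the median was -0.08 (all genes -0.01), and 8 of the 10 were lower against 56.1%.

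The age difference shared by the satellite and CD31_CD45 cells, the populations that did not choose the members, was tested in a linear model with limma over their 4 arrays. With Benjamini-Hochberg adjustment over 18372 genes, 0 members were called (background 0% of genes), and the lowest adjusted p of any gene was 0.579. At an unadjusted p under 0.05 there were 1538 genes, among them 1 member, Cnp. Cnp stood at 0.40 (SE 0.11, higher in both pairs, adjusted p = 0.594), Pou3f1 at 0.46 (SE 0.39, adjusted p = 0.779), Sox10 at 0.21 (SE 0.21, adjusted p = 0.808) and Mbp at -0.22 (SE 0.12, lower in both pairs, adjusted p = 0.708). Under each of the 9 alternative settings run for this test 0 members were called.

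Other markers also differed within the pairs, and their part in the results above was not tested. In the PDGFRa+ pair, where 49% of all genes were higher in the aged array and 50.9% lower, 11 of 13 endothelial genes were higher. Their summed deposited intensity was 1667 in young and 2145 in aged cells. Of these sums Ramp2 made up 815 and 1107.2, and Fabp4 311 and 491.1. Of 9 macrophage and monocyte genes 7 were higher, and Lyz2 alone passed 2-fold (log2 3.79). The list summed to 347.9 and 2143, of which Lyz2 made up 110.1 and 1904.6. Mesenchymal progenitor genes were lower for 12 of 14, summing to 167600 and 135900, with Col1a2 past 2-fold (-1.03). Of 10 pericyte and smooth muscle genes 6 were higher (summed 1252 and 1637), with Tagln (1.13) and Acta2 (1.00) at 2-fold or more. Of 7 tenocyte genes 3 were higher (14640 and 14950), and Kera stood at -2.86. In the satellite pair, where 44% of all genes were higher in the aged array, the lists differed more widely. Mesenchymal progenitor genes were higher in the aged array for 13 of 14 (summed 16590 and 22320, median log2 0.67), among them Mfap5 (2.37), Dcn (2.34), Lum (1.80) and Col1a2 (1.51), all genes of the connective tissue matrix. Tenocyte genes were higher for 6 of 7 (summed 909.3 and 3299), pericyte and smooth muscle genes for 9 of 10 (5806 and 9759) and myofibre genes for 10 of 10 (3109 and 5685). Macrophage and monocyte genes were higher for 10 of 10 (250.6 and 1134). Lyz2 was past 2-fold (2.55), as in the PDGFRa+ pair, and made up 147.3 and 965.3 of these sums. In the CD31_CD45 pair 11 of 13 endothelial genes were lower (81610 and 67230) and 7 of 7 B and T cell genes higher (290.8 and 764.8). Of all genes 56.1% were lower and 43.7% higher there.

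Around the 10 members, the wider glial lists were taken gene by gene. These lists were drawn up with earlier results of these data known, and the PDGFRa+ pair chose the members. Their counts and medians in that pair are therefore descriptions, and nothing is read from them. The Schwann lineage list had 8 of 12 genes with a named probe. In the PDGFRa+ pair 7 of the 8 were higher in the aged array, against 49% of all genes, with a median of 0.52. Without Sox10 6 of 7 were higher with a median of 0.48 (all genes 0.00). Fabp7, which encodes a fatty acid binding protein of glial precursors, read 3.5 and 67.8 in young and aged PDGFRa+ cells (log2 1.5), 10.4 and 36.3 in satellite cells (0.66), and 11.2 and 9.8 in CD31_CD45 cells (-0.06). S100b, a calcium-binding protein widely used to mark Schwann cells, read 184.2 and 246.2 in PDGFRa+ cells (0.48), 69.6 and 107.8 in satellite cells (0.50), and 53.3 and 41.9 in CD31_CD45 cells (-0.21). Cdh19, a cadherin of Schwann cell precursors, stood at 0.28 in the PDGFRa+ pair, and Ngfr, the low-affinity neurotrophin receptor of non-myelinating Schwann cells, at -0.19.

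Of the 17 measured myelin sheath genes, 14 were higher in aged PDGFRa+ cells, against 49% of all genes, with a median of 0.12. Cmtm5 alone passed 2-fold. Without the members Mbp, Cnp and Mal, which this contrast chose, 11 of 14 were higher with a median of 0.11. Cmtm5, a membrane protein of myelinating glia, read 8.4 and 74.3 in young and aged PDGFRa+ cells (1.43), 19.8 and 36.5 in satellite cells (0.39), and 16.1 and 12.4 in CD31_CD45 cells (-0.13). Gjc3, a connexin of glia, read 11.5 and 47.8 in PDGFRa+ cells (0.92). Pmp22, a myelin protein made by many cells of mesenchymal origin, stood at -0.20. The myelin genes thus ranged from near 0 to well above it in 1 pair of arrays. Their median in the satellite pair was 0.03, with 9 of 17 higher against 44% of all genes.

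**Figure D3:**
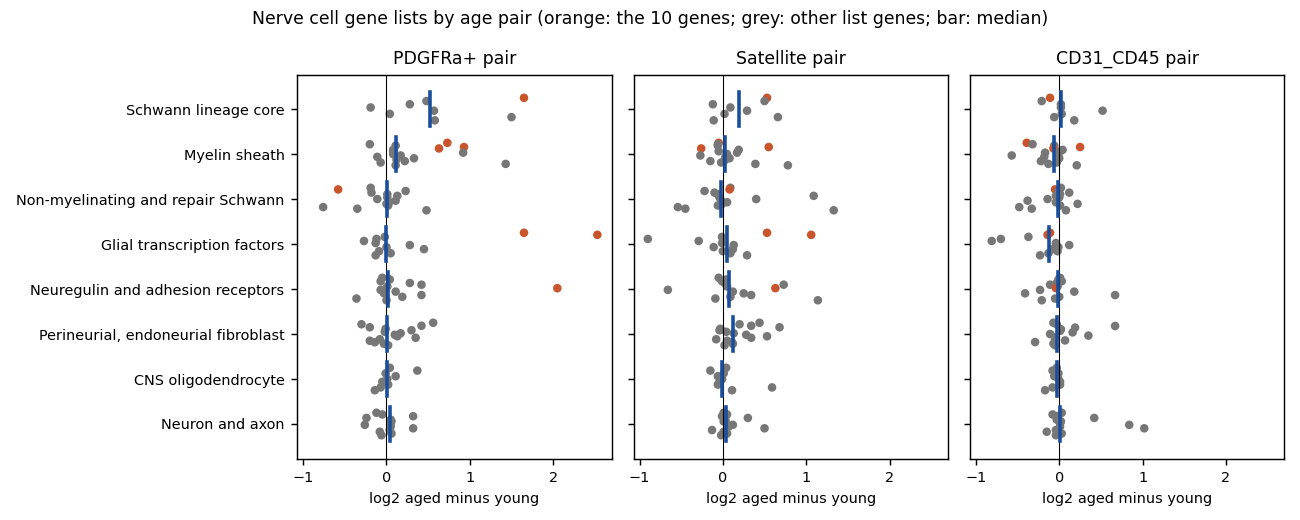
Log2 aged minus young of each gene of 8 fixed lists (rows) in each population (panels), with the 10 members in orange, other list genes in grey and the list median as a blue bar. The Schwann lineage list has the highest median in the PDGFRa+ pair (0.52, and 0.48 without Sox10). The oligodendrocyte and neuron lists have medians of 0.01 and 0.04 there. That pair chose the members, so the medians are descriptions.

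The medians of the other nerve lists lay near 0 in the PDGFRa+ pair, with single genes on either side. The counts of higher genes below stand against 49% of all genes in that pair. Non-myelinating and repair Schwann cell genes were higher for 9 of 15 with a median of 0.01 and 0 past 2-fold. Among them Jun, a factor of the repair state and of many stressed cells, stood at -0.76, the member Gap43 at -0.58 and Tnc at 0.48, and Gfap, a filament protein of non-myelinating Schwann cells and astrocytes, read 1.1 and 1.0. Glial transcription factors were higher for 6 of 12 with a median of -0.01, where Sox10 and Pou3f1 were the only ones past 2-fold and Egr2 read 157.8 and 127.1 (-0.12). Without these 2 members 4 of 10 were higher, with a median of -0.05. Genes of neuregulin and adhesion receptor signalling had a median of 0.02, with the member Gpr37l1 the 1 past 2-fold, and Lgi4, a secreted ligand for Schwann cell maturation, read 224.6 and 283.9 (0.42). Perineurial and endoneurial fibroblast genes were higher for 8 of 16 with a median of 0.01, and neuron and axon genes for 8 of 14 with a median of 0.04. Of 9 oligodendrocyte genes 5 were higher with a median of 0.01. Olig2, the factor that defines that lineage, read 5.2 and 5.5, and Mog, a protein of central myelin, 16.2 and 27.9 (0.37). Astrocyte genes had a median of -0.03 and melanocyte genes, another Sox10-expressing lineage, of 0.07, with Dct not above background in young and at 1.3 in aged PDGFRa+ cells.

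In the satellite pair, single genes of these lists stood further from 0. Scn7a, a sodium channel of non-myelinating Schwann cells and other cells, had satellite values of 5.0 (young) and 48.3 (aged), a log2 difference of 1.09, against 76.9 and 78.6 in PDGFRa+ cells. Tnc, which encodes the matrix protein tenascin C, read 13.7 and 85.2 (1.33), against 197.2 and 265.3 in PDGFRa+ cells. Lpar1, a lysophosphatidic acid receptor, read 276.1 and 613.1 (1.14), against 835.0 and 767.6 in PDGFRa+ cells. These 3 genes were brighter in PDGFRa+ than in satellite cells at both ages. For Sox10 the young PDGFRa+ value (35.1) was below both satellite values (53.2 and 89.6), and the aged PDGFRa+ value (173.8) above both. What lies behind these patterns was not tested.

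The genes most like Sox10 were sought among 4166 tested genes that spanned at least 2-fold over the arrays, by Pearson correlation of log2 values over the 6 arrays. The arrays share populations and the aged PDGFRa+ array weighs heavily, so the values are descriptive. The nearest was Cmtm5 (r = 0.997), then the member Gpr37l1 (0.994), Fabp7 (0.989), Col20a1 (0.988), Ajap1 (0.987) and the member Pou3f1 (0.985). The member Kcna1 followed at 0.942, and C4b (0.908), Wnt16 (0.903) and Lrrc15 (0.887) came last of the 10. Col20a1, which encodes a fibril-associated type of collagen, read 6.6 and 73.0 in young and aged PDGFRa+ cells, 10.0 and 30.9 in satellite cells, and 5.9 and 8.6 in CD31_CD45 cells. Ajap1, a protein of adherens junctions, read 21.8 and 182.8, 29.9 and 92.0, and 32.8 and 32.2 in the same order. C4b encodes complement component C4 and read 34.1 and 94.1 in PDGFRa+ cells.

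**Figure D4:**
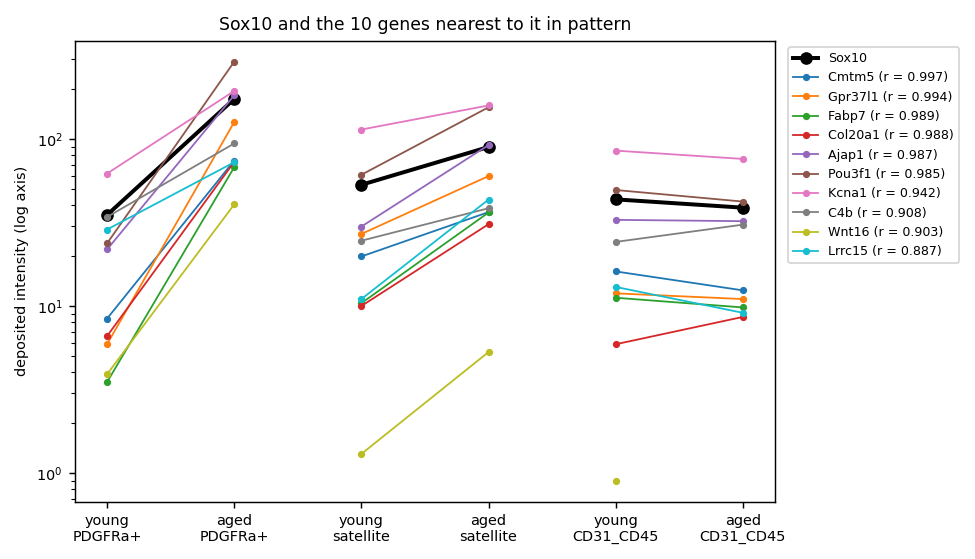
Deposited intensity (log axis) of Sox10 (black) and the 10 genes with the highest Pearson r to it over the 6 arrays, with lines joining the young and aged array of a population. Cmtm5, Fabp7, Col20a1 and Ajap1 are higher in the aged array of the PDGFRa+ and satellite pairs. Wnt16 has no aged CD31_CD45 point because its probe was not above background there.

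Mbp had other neighbours. Its nearest genes were Zfand6 (r = 0.932), the member Mal (0.916), Mif (0.910), Plekhb1 (0.899) and Slc25a25 (0.888). Plekhb1, a membrane-associated protein, read 100.4 and 217.6 in young and aged PDGFRa+ cells (1.00) and 488.4 and 377.0 in satellite cells (-0.28). For Gpr37l1 the nearest were Sox10 (0.994), Cmtm5 (0.990), Pou3f1 (0.989), Fabp7 (0.980) and Ajap1 (0.976). For Pou3f1 they were Fabp7 (0.990), Gpr37l1 (0.989), Sox10 (0.985), Ajap1 (0.985) and Cmtm5 (0.984). Among the members, the correlation with Sox10 was 0.42 for Matn2, 0.41 for Mbp, 0.34 for Cnp, 0.13 for Mal, 0.03 for Gap43 and -0.18 for Art3, so the 10 genes did not share a single pattern.

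Between populations, Matn2 and Art3 separated satellite from CD31_CD45 cells, a comparison whose estimate uses none of the arrays that chose the members, although its error does. With limma, 1 model took in the 6 arrays and held a population term and an age term, so each population has 2 arrays that differ in age, and age differences not shared by the populations enter the error. A gene was called at a Benjamini-Hochberg adjusted p under 0.05 and at least 2-fold. Matn2 rose in satellite relative to CD31_CD45 cells by 1.72 (SE 0.17, log2, adjusted p = 0.00778), and Art3 fell by 1.94 (SE 0.37, adjusted p = 0.0311). These are 1 of 10 members in each direction, against 5.12% of 18372 genes called higher and 6.57% called lower (11.7% in all). Cnp had an adjusted p of 0.0407 but stood at -0.87 (SE 0.19), short of 2-fold. Without the young or without the aged CD31_CD45 array neither was called (Matn2 adjusted p = 0.0597 and 0.0501, Art3 adjusted p = 0.137 and 0.0708), nor was Art3 without the young (adjusted p = 0.113) or the aged satellite array (adjusted p = 0.140). Within the second scanner set, the aged satellite minus the aged CD31_CD45 array was 1.77 for Matn2 and -1.77 for Art3. With the local background Matn2 was not called (0.61, adjusted p = 0.624), and with the scanner set as a term Art3 was not (-2.10, SE 0.54, adjusted p = 0.113). In this comparison the scanner set term gave the same fit as leaving out the young satellite array. Without the young, or without the aged, PDGFRa+ array the SE was 0.05 for Matn2 and 0.11 for Art3.

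**Figure D5:**
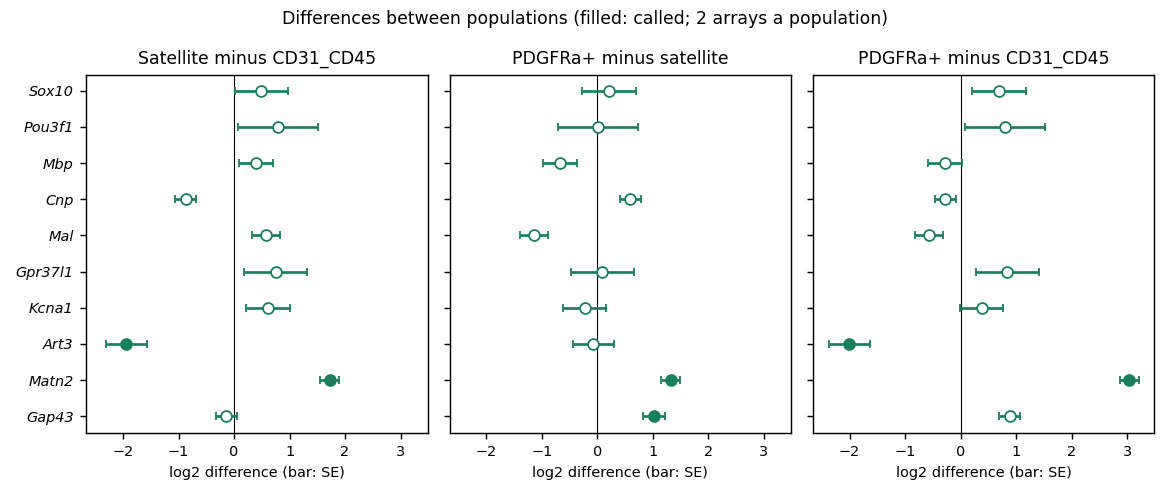
Log2 differences between populations for the 10 genes (rows), with bars for the standard error of the limma fit over 6 arrays and filled points for called genes. Matn2 is called in all 3 comparisons, Art3 in both comparisons with CD31_CD45 cells, and Sox10, Pou3f1 and Gpr37l1 have wide bars and are not called.

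The comparisons with PDGFRa+ cells use the mean of the arrays whose difference chose the members. Matn2 rose in PDGFRa+ relative to satellite cells by 1.32 (SE 0.17, adjusted p = 0.0194) and relative to CD31_CD45 cells by 3.04 (SE 0.17, adjusted p = 0.00340), so its level followed the order PDGFRa+, satellite, CD31_CD45. Gap43 rose against satellite cells by 1.02 (SE 0.19, adjusted p = 0.0400), and against CD31_CD45 cells it stood at 0.88 (SE 0.19, adjusted p = 0.0480), short of 2-fold. Art3 fell against CD31_CD45 cells by 2.01 (SE 0.37, adjusted p = 0.0335). Against satellite cells 2 of 10 members were called higher (background 4.09%) and 0 lower (3.20%), with 7.29% of genes called in all. Against CD31_CD45 cells 1 was called higher (4.70%) and 1 lower (5.40%), with 10.1% in all. The call of Matn2 and that of Gap43 against satellite cells were lost without any single array, with adjusted p of 0.0505 to 0.0828 for Matn2 and 0.0516 to 0.155 for Gap43. Without the young, or without the aged, PDGFRa+ array 0% of all genes were called in that comparison, by limma with 1 residual degree of freedom. The call of Art3 was lost without the young PDGFRa+ array (adjusted p = 0.0546), either satellite array (0.0730 each), or the young (0.145) or aged CD31_CD45 array (0.0787). Matn2 against CD31_CD45 cells was called without each array in turn, but not with the local background (1.26, adjusted p = 0.361) or the scanner set as a term (3.38, adjusted p = 0.0532). Within the first scanner set, the young PDGFRa+ minus the young satellite array was 1.61 for Matn2 and 1.35 for Gap43.

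Sox10, Pou3f1, Gpr37l1, Kcna1, Mbp and Mal were called in none of the 3 comparisons. The mean of the 2 PDGFRa+ arrays differed from that of the satellite arrays by 0.21 for Sox10 (SE 0.48, adjusted p = 0.838), 0.01 for Pou3f1 (SE 0.72, adjusted p = 0.996) and 0.09 for Gpr37l1 (SE 0.57, adjusted p = 0.949). The age difference of the PDGFRa+ pair enters these errors, and the adjusted p-values do not show that the levels were alike. Mal stood at -1.14 against satellite cells (SE 0.25, adjusted p = 0.0560), and was called there under 5 of 17 alternative settings, such as no background correction (-1.69, adjusted p = 0.0361). Mbp stood at -0.67 (SE 0.31, adjusted p = 0.228), and for Mal and Mbp every PDGFRa+ value lay below every satellite value.

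Among the other glial genes, differences between populations were called for genes outside the 10. Of 8 Schwann lineage genes 2 rose in satellite relative to CD31_CD45 cells, Cryab (1.30, adjusted p = 0.00430), a small heat shock protein, and Ngfr (1.14, adjusted p = 0.00515), and 0 fell, where 5.12% of all genes were called higher and 6.57% lower. Of 17 myelin genes 3 rose in that comparison, Drp2 (1.65, adjusted p = 0.00191), Pmp22 (1.45, adjusted p = 0.00302) and Mpzl2 (1.32, adjusted p = 0.0186), and 0 fell. In PDGFRa+ relative to satellite cells 2 of the 17 fell, Drp2 (-1.83, adjusted p = 0.00452) and Mpzl2 (-1.18, adjusted p = 0.0321), and 0 rose, where 4.09% of all genes were called higher and 3.20% lower. Of 12 glial transcription factors 3 rose in satellite relative to CD31_CD45 cells and 0 fell. Among them Egr2, also an immediate-early gene of many cell types, stood at 2.46 (adjusted p = 0.00684). In PDGFRa+ relative to satellite cells Egr2 fell (-1.85, adjusted p = 0.0179). S100b rose in PDGFRa+ relative to CD31_CD45 cells by 1.58 (adjusted p = 0.0184) and stood at 0.99 relative to satellite cells (adjusted p = 0.0550). Lgi4 rose in PDGFRa+ cells against both satellite (1.54, adjusted p = 0.0258) and CD31_CD45 cells (2.60, adjusted p = 0.00777). For genes outside the 10, calls were not followed gene by gene under the other settings. With the local background, 0.37% of all genes were called between PDGFRa+ and satellite cells, against 7.29% in the main setting. Between satellite and CD31_CD45 cells the share was 1.86%, against 11.7%.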

How the data were processed

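In all, 6 arrays of 1 colour (Cy5-labelled amplified RNA, per the labels' protocols) were used, 1 per population and age. Per the file headers, the scanner files hold the median intensity of each of 27456 spots. Linear intensity with a column median of 25 makes up the table that the authors deposited. Each column matched, within 0.0938, its scanner file after subtraction of the mean of 2736 blank spots (5% trimmed) and scaling by a constant, and cells are empty where a spot was not above background. The genome build behind the probes is not given in the sources used here.

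The normexp method of limma (background: that blank mean; offset 50) was run on the spot medians, followed by log2 and quantile normalisation without control spots. Of 23473 probes, 20690 had 1 gene symbol and 2783 none. The probe with the highest mean deposited value, empty cells as 0, stood for a gene, and 18372 genes above background on at least 2 arrays were tested (lmFit then eBayes of limma 3.58.1 in R 4.3.3, two-sided, with 2 residual degrees of freedom). Within a population 1 aged array was set against 1 young array without a test. The fit was tested on simulated data.

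The members, lists and tests were chosen with earlier results of these data known, and the blank spots were taken as background for the same reason. Named genes were the members, the sort markers, the defining glial markers, up to 4 genes past 2-fold or the furthest of each list, and the genes nearest in pattern to Sox10, Mbp, Gpr37l1 and Pou3f1; genes called between populations in the lists were added after their values were seen. Other settings tried were the background, offset, normalisation, probe choice, filter, age term, scanner set and each array left out. P-values measure the spread between single arrays of different age.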

Additional observations from a re-analysis of the deposited data

How the results depend on the processing

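The number of members past 2-fold in the PDGFRa+ pair was 5, and became 1 with the local background of each spot, 8 when the offset was 10, and 9 in the authors' own table, where Gap43 was the 1 lower by that much. All genes past 2-fold made up 6.10%, 1.10% and 7.57% under those settings against 0.422%. In the satellite pair the count of 1 became 3 with the value table and with the local background was Matn2 (1.45) in place of Pou3f1, and in the CD31_CD45 pair it was 0 under all 7 alternatives. Sox10 ranged from 0.50 to 2.28, Pou3f1 from 0.84 to 3.56 and Gpr37l1 from 1.48 to 4.21 in the PDGFRa+ pair, and Mbp from -0.05 to 1.08, with the lowest value of each from the local background, which also turned Matn2 to 0.04. Gpr37l1 exceeded Pou3f1 with the local background, the offset of 10 (3.34 and 3.30) and the value table. Cnp ranged from 0.31 to 1.09, 0.03 to 0.70 and -0.01 to 0.28 in the 3 pairs. In the satellite pair these ranges were 0.53 to 0.74 for Sox10, 0.64 to 1.33 for Pou3f1 and 0.63 to 1.12 for Gpr37l1. Between satellite and CD31_CD45 cells, the 2 called members became 1 with the local background (Matn2 lost), 1 with the scanner set as a fixed term (Art3 lost), 0 to 2 with an array left out, and 3 under 4 settings. Between PDGFRa+ and satellite cells, the 2 became 0 with the local background, 0 with the scanner set, 0 without each array in turn, and 3 under 4 settings. Between PDGFRa+ and CD31_CD45 cells, the 2 became 1 with the local background, 0 with the scanner set, 1 to 3 with an array left out, and 3 under 3 other settings. The cause of these changes was not tested, apart from the smaller number of arrays when 1 is left out, where the lone array of a population is assumed to vary like the others. The scanner set as a fixed term was chosen after seeing the data, since its correlation as a random block could not be fitted. Its effect is what remains of the age difference of the satellite pair after the age term. Between satellite and CD31_CD45 cells the fit therefore equals that without the young satellite array. Between PDGFRa+ and satellite cells it equals that without the aged satellite array, so these are not separate checks. No called value changed sign. No paired analysis was possible because the labels give no replicate numbers and each group has 1 array. Precision is limited by having 6 arrays and, for the dim Gap43 probe, by its signal over background.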
